A study of Homo sapiens with 12 samples.

Results

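LS411N-BR is a derivative of the human colon cancer line LS411N that grows in the presence of a BRAF inhibitor, and it was grown here with and without induction of a hairpin RNA against MUC1. The data are the 6 LS411N-BR libraries of a series of 12, 3 with doxycycline and 3 without, the other 6 being LS411N under the same plan without the inhibitor. The table for LS411N-BR lists 25540 genes. The 11322 genes with at least 1 TPM (a length-corrected share of a library's transcripts) in at least 3 of the 6 libraries were tested.

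All 6 cultures of LS411N-BR carried the doxycycline-inducible MUC1 hairpin, were resistant to puromycin and grew in RPMI medium with serum and 4 µM BRAF inhibitor. Doxycycline was given at 500 ng/ml to the 3 cultures labelled MUC1-C knockdown, and the 3 controls received the vehicle, 0.1% DMSO. LS411N had the same hairpin, dose and vehicle but no inhibitor. The sources used here do not give the inhibitor's name, the hairpin's sequence or the length of treatment. These groups limit what can be read from the data. LS411N-BR is a single derived line with a single hairpin, and a doxycycline arm with a non-targeting hairpin was not analysed here. The drug itself and the loss of MUC1 therefore cannot be told apart. Because every LS411N-BR culture had the inhibitor, its own effect cannot be told apart from that of the line. The cultures are called triplicates without a statement that they were grown separately, so p-values measure only the spread between these samples.

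MUC1 encodes a transmembrane mucin of epithelial cells that is cut into a shed extracellular part and a C-terminal part, MUC1-C, which spans the membrane and can signal from it. BRAF is a kinase of the RAS, RAF, MEK and ERK cascade, and colon cancers with an activated BRAF often escape BRAF inhibitors by switching the cascade back on through growth factor receptors. In the normal colon, stem cells at the crypt base, kept by WNT signals, give rise to absorptive colonocytes and to secretory cells such as goblet cells as their progeny move up the crypt. After injury the epithelium passes through a repair state with genes of wound edges and of the fetal gut. Colon cancer cells keep parts of each of these programmes.

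Between 17225 and 17650 genes per library had a value above 0. Every library sums to 1000000 TPM by construction and the sources used here give no read totals, so depth is unknown. Short RNA genes, led by RN7SK, took 54.3, 52.3 and 53.9% of the TPM without doxycycline and 47.3, 51.4 and 50.5% with it (means 53.5% ± 1.03 and 49.7% ± 2.1, SD, n = 3, two-sided exact permutation p = 0.1, the smallest that 3 against 3 allows). TPM are shares of a library, so the values of tested genes below were rescaled between the 6 libraries by the median of ratios (factors 0.904 to 1.13). They are called rescaled TPM, and rescaling moved the median log2 fold change over all genes from 0.18 to -0.0015. Counts and sums of cell type markers, and values of genes that did not pass the filter, are TPM as deposited. Between libraries of 1 group the SD of log2 differences over genes was 0.0935 to 0.112, and between groups 0.34 to 0.359. Epithelial identity held in all libraries. Of 14 colon epithelial genes, 13 passed the filter, among them EPCAM, CDH17 and CDX2, and only CDX1 stayed under 1 TPM in every library. Of 15 fibroblast and endothelial genes 14 were under 1 TPM in every library (all but LUM), and of 15 immune cell genes 13 (all but LYZ and CD68). The 15 fibroblast and endothelial genes together summed to 1.59 to 1.89 TPM without doxycycline and 2.88 to 3.84 with it. The immune genes MS4A1, NKG7 and KLRD1 were listed at 0 throughout.

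MUC1 was lower in every culture with doxycycline. Its rescaled TPM were 4.08, 4.05 and 4.66 without doxycycline and 0.62, 0.374 and 0.411 with it, 89% lower by the means (log2 fold change -1.84 ± 0.07 SE, adjusted p = 4.8e-08). The groups lay far apart, although the gene was a low one in this line even without induction of the hairpin. The gene occupies positions 155185824 to 155192916 of chromosome 1, minus strand, in GRCh38 with the GENCODE 29 annotation. Fold changes throughout are on the log2(rescaled TPM + 1) scale, which understates those of low genes, and a gene was called at a limma adjusted p under 0.05.

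With doxycycline 3660 genes were called higher and 3632 lower, 32.3% and 32.1% of all genes tested, so a call on its own was common in these tight replicates. Calls of at least 1.5-fold were rarer, 394 higher and 368 lower (3.48% and 3.25%), and at least 2-fold 95 and 97. Without rescaling 6351 genes were called higher and 1252 lower, so higher calls made up 83.5% of all calls and not 50.2%. At 1.5-fold the unscaled counts were 883 and 221, and 394 and 218 genes passed under both scalings. The named genes and lists below were taken by the rules given with the processing. The counts of called members are set against the shares above.

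**Figure D1:**
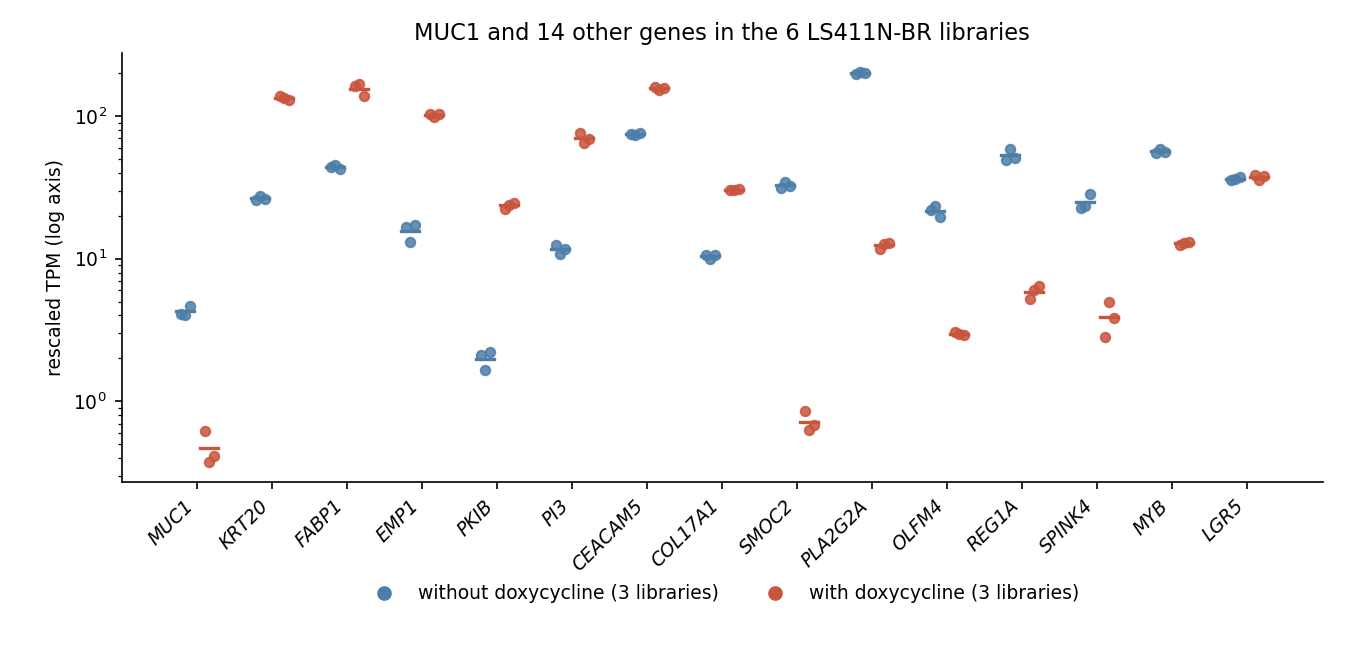
Rescaled TPM (log axis) of 15 genes in the 6 LS411N-BR libraries, points for libraries and short lines for the mean of 3. MUC1 fell together with the crypt genes SMOC2, OLFM4 and MYB, while KRT20, FABP1 and EMP1 rose, and the points of LGR5 overlap between the groups.

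Genes of mature absorptive colonocytes rose almost as a block. Of 32 listed colonocyte and enterocyte markers 23 were tested. Of these 20 were called higher and 3 lower, and 17 were higher by at least 1.5-fold, against 3.48% of all genes. The list's median log2 fold change was 1.06. KRT20, the keratin of the upper crypt and surface, read 25.8, 27.5 and 26.2 without doxycycline and 139, 134 and 129 with it. That is 5.06-fold by the means (log2 fold change 2.30 ± 0.04 SE, adjusted p = 2.8e-10), and the groups did not come near each other. FABP1, which carries fatty acids inside enterocytes, read 43.7, 45.7 and 42.6 without doxycycline and 161, 167 and 138 with it (log2 fold change 1.79 ± 0.06 SE, adjusted p = 1.7e-08), with replicate 3 the lowest of the doxycycline libraries and no overlap with the controls. PLAC8, a small cysteine-rich protein, read 9.27, 7.87 and 9.36 without doxycycline and 38.9, 37.3 and 39.5 with it (log2 fold change 2.01 ± 0.06 SE, adjusted p = 4.8e-09). GUCA2A encodes guanylin, the gut peptide that acts on the receptor GUCY2C, and read 2.02, 3.17 and 1.94 without doxycycline and 11.6, 11 and 12.2 with it, so that its highest control lay well under its lowest doxycycline library. Adhesion proteins of the CEACAM family moved alike. CEACAM7, a marker of mature colonocytes, read 2.88, 3 and 3.24 without doxycycline and 14.6, 13.1 and 12.8 with it and CEACAM1 10.8, 10.5 and 11.1 without doxycycline and 30.6, 30.9 and 31.6 with it. The more abundant CEACAM5 and CEACAM6 rose by 1.06 ± 0.03 SE and 1.11 ± 0.04 SE on the log2 scale. CA2, a carbonic anhydrase, rose by 0.88, FABP2 by 0.80 and the chloride-bicarbonate exchanger SLC26A3 by 1.14, the last from a mean under 1 rescaled TPM. In bulk RNA a change in the number of cells of a type and a change in RNA per cell cannot be told apart, here and below.

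The microvillus list followed with smaller changes. Of 19 tested members 16 were called higher and 1 lower, 5 of the 16 by at least 1.5-fold, with a median of 0.46. The protocadherin CDHR5, which links microvillus tips, read 1.65, 1.59 and 1.52 without doxycycline and 4.39, 4.3 and 4.36 with it (log2 fold change 1.05 ± 0.04 SE, adjusted p = 5.5e-08). Its lowest doxycycline library lay well above its highest control. Also called higher were its partner CDHR2 (0.51), the actin bundler EPS8 (0.82 ± 0.03 SE) and EZR, which ties actin to the membrane (0.78 ± 0.03 SE). The core bundler VIL1 was not called (log2 fold change 0.10 ± 0.04 SE, adjusted p = 0.053), but was called higher without control replicate 2 (0.125), with robust moderation (0.095) and without rescaling (0.303). The brush border motor MYO1A fell by 0.25, a call lost without rescaling (-0.053). Among 16 tested genes of fat uptake 10 were called higher and 2 lower (median 0.34). MTTP, which loads lipid onto lipoproteins, read 7.95, 9.41 and 8.3 without doxycycline and 19.8, 20.1 and 20.5 with it (log2 fold change 1.15 ± 0.05 SE, adjusted p = 9e-08). CREB3L3, a transcription factor of fat handling, read 0.174, 0.26 and 0.147 without doxycycline and 2.21, 2.26 and 2.24 with it (log2 fold change 1.44 ± 0.06 SE, adjusted p = 4.9e-08), near the floor in all controls. NPC1L1, the cholesterol uptake transporter, went the other way (-0.75 ± 0.06 SE), and the apolipoprotein genes APOA1, APOA4 and APOB did not pass the filter, at 0.0739 TPM or less in every library.

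Ion transport genes went both ways. Of 11 tested members 3 were called higher and 6 lower (median -0.25, and -0.04 without rescaling). The sodium-potassium-chloride cotransporter SLC12A2, a marker of the lower crypt, read 259.9, 280.2 and 265 without doxycycline and 111, 110.0 and 113 with it (log2 fold change -1.26 ± 0.03 SE, adjusted p = 4.1e-09), and the potassium channel KCNQ1 fell by 0.40. The sodium-proton exchanger SLC9A2 rose by 0.72 and the guanylin receptor GUCY2C by 0.66. Of 17 tested intestinal transcription factors 9 were called higher and 5 lower, but only 2 higher and 1 lower by at least 1.5-fold. KLF4, a zinc finger factor of post-mitotic epithelium, read 30.1, 31 and 29.3 without doxycycline and 78.3, 77.8 and 77.6 with it (log2 fold change 1.34 ± 0.03 SE, adjusted p = 1.3e-09), and ISX, which controls vitamin A uptake, rose by 1.09 ± 0.08 SE from a mean under 1 rescaled TPM. FOXA2 fell by 0.95. The master regulators CDX2, HNF4A and HNF4G moved by 0.18, 0.20 and 0.27, all called higher but under 1.5-fold.

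Most crypt-base stem cell markers fell, but not LGR5. Of 20 tested members 3 were called higher and 13 lower, 1 and 11 of these by at least 1.5-fold, with a median of -0.72. SMOC2, a secreted matrix protein of crypt-base cells, read 31.4, 34.6 and 32.1 without doxycycline and 0.858, 0.627 and 0.684 with it (log2 fold change -4.29 ± 0.06 SE, adjusted p = 8.6e-11), the largest fall of all genes taken by the rule. OLFM4, a glycoprotein of the same cells, read 21.8, 23.3 and 19.7 without doxycycline and 3.09, 2.96 and 2.9 with it (log2 fold change -2.50 ± 0.06 SE, adjusted p = 1.3e-09). MYB, a transcription factor of crypt progenitors, read 55.4, 58.6 and 55.8 without doxycycline and 12.5, 12.9 and 13.1 with it (log2 fold change -2.06 ± 0.03 SE, adjusted p = 2.8e-10), and RGMB, a co-receptor for BMP ligands, 45.8, 50.5 and 46.7 without doxycycline and 12.1, 12.5 and 11.8 with it. No library of either group came near the other group in these 4 genes. The stem cell factor ASCL2 read 16.6, 16.1 and 16.4 without doxycycline and 8.05, 6.85 and 6.76 with it (log2 fold change -1.08 ± 0.06 SE, adjusted p = 2e-07). The ephrin receptors EPHB3 and EPHB2, which hold cells low in the crypt, fell by 1.59 and 0.82, the progenitor factor SOX9 by 0.97 and the growth factor receptor inhibitor LRIG1 by 0.83. LGR5, the R-spondin receptor that marks these stem cells, read 35.5, 36 and 37.1 without doxycycline and 38.7, 35.8 and 38.2 with it (log2 fold change 0.05 ± 0.04 SE, adjusted p = 0.24), with overlapping groups. CD44, a surface glycoprotein, was also not called (0.06 ± 0.03 SE). Without rescaling both were called higher (0.256 and 0.265). The aldehyde dehydrogenase ALDH1A1, used as a stem cell marker, rose by 0.36, and ALDH1A3, past 1.5-fold, by 0.62.

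WNT feedback genes were mixed. Of 18 tested members 8 were called higher and 8 lower, 1 higher and 0 lower by at least 1.5-fold, with a median of -0.08 (0.12 without rescaling). AXIN2, a common readout of WNT signalling, read 15, 15.3 and 14.5 without doxycycline and 13.7, 14.2 and 13.8 with it (log2 fold change -0.10 ± 0.03 SE, adjusted p = 0.028). Its sign turned without rescaling, and the call was lost without doxycycline replicate 1 or 3 or control replicate 1 or 2 (-0.082 to -0.095). The transcription factors TCF7 and LEF1 fell by 0.48 and 0.25 and the coactivator CTNNB1 by 0.48, whereas the inhibitor APC rose by 0.44. MYC read 74.9, 69 and 74.1 without doxycycline and 97, 97.8 and 95.5 with it (log2 fold change 0.41 ± 0.04 SE, adjusted p = 6.7e-06), and the cyclin CCND1 61.3, 62.3 and 60.5 without doxycycline and 101, 97.6 and 100.2 with it (log2 fold change 0.69 ± 0.03 SE, adjusted p = 5.2e-08). Both were higher in every doxycycline library than in any control.

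Most secretory markers fell. Of 16 tested goblet, Paneth, tuft and enteroendocrine markers 5 were called higher and 10 lower, with a median of -0.78. At 1.5-fold 3 were higher and 8 lower. PLA2G2A, a secreted phospholipase of Paneth cells, read 196, 202 and 199 without doxycycline and 11.8, 12.7 and 12.9 with it (log2 fold change -3.90 ± 0.04 SE, adjusted p = 6e-12). REG1A, a lectin-like secreted protein, read 49, 58.7 and 50.9 without doxycycline and 5.19, 6 and 6.41 with it (log2 fold change -2.97 ± 0.08 SE, adjusted p = 2.5e-09) and SPINK4, a goblet cell protease inhibitor, 22.6, 23.4 and 28.5 without doxycycline and 2.83, 4.96 and 3.85 with it (log2 fold change -2.42 ± 0.14 SE, adjusted p = 4.2e-07). LYZ, the antibacterial lysozyme of Paneth cells, read 168, 159.5 and 159 without doxycycline and 43.9, 47.8 and 44.7 with it. LYZ is also made by macrophages. CD68, the other immune list gene that passed the filter, rose (0.80 ± 0.04 SE), while PTPRC, the pan-leukocyte marker, was at 0.00316 TPM or less in every library. ATOH1, the factor that sets the secretory fate, read 2.33, 3.06 and 2.85 without doxycycline and 0.13, 0.187 and 0.117 with it (log2 fold change -1.71 ± 0.08 SE, adjusted p = 8.7e-08), and the goblet gene REG4 20.0, 17.8 and 19.6 without doxycycline and 7.13, 7.23 and 7.1 with it (log2 fold change -1.30 ± 0.04 SE, adjusted p = 1.5e-08). TFF3, a goblet cell trefoil peptide, fell by 0.46 from a low level, and the secretory factor SPDEF and the mucin MUC2 did not pass the filter. AGR2, a disulphide isomerase needed for mucin folding, rose by 0.27. The 3 members at least 1.5-fold higher were POU2F3, a tuft cell factor (1.34), the glycosyltransferase GALNT5 (0.93) and AGR3 (0.60), named here after their values were seen.

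The remaining genes among the 15 largest falls were not members of the lists described so far. KIAA1324, a membrane protein induced by oestrogen, read 13.3, 14.8 and 13.6 without doxycycline and 2.71, 2.75 and 2.86 with it (log2 fold change -1.98 ± 0.05 SE, adjusted p = 1.5e-09), and FAM43A 18.6, 19.2 and 19 without doxycycline and 5.52, 5.06 and 5.47 with it (log2 fold change -1.65 ± 0.04 SE, adjusted p = 1.5e-09). CCL24, a chemokine, read 7.29, 5.29 and 6.49 without doxycycline and 0.341, 2.29 and 1.95 with it, the least even of the group (log2 fold change -1.64 ± 0.28 SE, adjusted p = 0.00058). The uncharacterised locus LOC105376271 read 10.5, 6.32 and 8.62 without doxycycline and was listed at 0 in all 3 libraries with it, so no fold is given. WARS, DARS and HIST1H2BM are taken up below.

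Most genes of the injured and regenerating epithelium rose. Of 21 tested members 17 were called higher and 2 lower, 11 and 1 of these by at least 1.5-fold, with a median of 0.61. EMP1, a membrane protein of wound edges and invasive colon cancer cells, read 16.7, 13.1 and 17.3 without doxycycline and 103, 99 and 104 with it (log2 fold change 2.63 ± 0.08 SE, adjusted p = 8.4e-09), a 6.5-fold rise of the means. ANXA1, an annexin of the repair state, read 28.6, 22.8 and 27.8 without doxycycline and 83.6, 88.4 and 88.3 with it (log2 fold change 1.69 ± 0.07 SE, adjusted p = 5.7e-08). COL17A1, a hemidesmosome collagen, read 10.6, 9.93 and 10.5 without doxycycline and 30.5, 30.3 and 30.6 with it (log2 fold change 1.47 ± 0.03 SE, adjusted p = 1.5e-09), and the alarmin IL33 5.23, 4.92 and 5.54 without doxycycline and 14.4, 14.3 and 14.4 with it (log2 fold change 1.31 ± 0.04 SE, adjusted p = 1e-08). The annexin ANXA3 rose by 0.71, the urokinase receptor PLAUR by 0.61 and the chaperone CLU by 0.49. The integrin ITGA6 fell by 0.66 and LY6E by 0.45. Most colonocyte and most repair genes were thus higher in the same cultures.

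Many epithelial junction genes rose and mesenchymal genes were barely detected. Of 30 tested keratins, claudins and junction genes 21 were called higher and 5 lower, 6 of the 21 by at least 1.5-fold, with a median of 0.30. KRT19 read 187, 169 and 174 without doxycycline and 383, 395 and 388 with it (log2 fold change 1.13 ± 0.04 SE, adjusted p = 2e-08). The tight junction proteins CGN and CLDN4 rose by 0.71 and 0.60, the desmosome linker JUP by 0.68 and the intestinal cadherin CDH17 by 0.48, while E-cadherin, CDH1, was not called (0.04 ± 0.03 SE). Of 23 mesenchymal genes and EMT factors only 2 passed the filter, and limma called 0 of them. VIM, ZEB1, CDH2 and FN1 did not pass it, at 0.244 TPM or less in every library. Among 15 tested proteases and inhibitors 8 rose and 4 fell, 5 and 1 of these past 1.5-fold. The elastase inhibitor PI3, also called elafin, read 12.5, 10.7 and 11.8 without doxycycline and 76.4, 64.5 and 69.4 with it (log2 fold change 2.49 ± 0.06 SE, adjusted p = 2.8e-09) and SLPI, a related inhibitor, 81.9, 63.2 and 69.4 without doxycycline and 137, 141 and 144 with it. The collagenase MMP1 and the matrilysin MMP7 rose by 1.30 ± 0.05 SE and 1.30 ± 0.08 SE from low levels, and urokinase, PLAU, fell by 0.62.

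Other transmembrane mucins rose while MUC1 fell. Of 21 tested mucin and mucin glycosylation genes 12 rose and 6 fell, 4 and 2 of these past 1.5-fold, MUC1 itself counted among the lower. The transmembrane mucin MUC17 read 1.32, 1.31 and 1.43 without doxycycline and 6.34, 5.1 and 6.46 with it (log2 fold change 1.56 ± 0.07 SE, adjusted p = 1.2e-07) and MUC13 209, 219 and 215 without doxycycline and 341, 314 and 341 with it (log2 fold change 0.63 ± 0.04 SE, adjusted p = 7.8e-07). The galectin LGALS3, a lectin that binds mucin glycans, read 637, 584 and 663 without doxycycline and 1312, 1257 and 1243 with it (log2 fold change 1.02 ± 0.05 SE, adjusted p = 1.6e-07), and GCNT3, which branches mucin glycans, rose by 1.13 ± 0.04 SE. The sialyltransferase ST6GALNAC1, which makes the sialyl-Tn epitope, fell by 1.20. MUC4 did not pass the filter, at 0.0023 TPM or less in every library.

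The promoter of several of these genes holds letters that match motifs of intestinal or injury factors, and binding was not measured. A selection is shown, made after the matches were seen, with at least 1 gene for 4 of the motifs and, for AP-1 and CDX, genes of both directions. Windows of 300 bases, from 250 before to 50 after the RefSeq start (GRCh38.p14), were found for 8937 of the 11322 genes and searched on both strands for 6 motifs. The sequences are given on the gene's strand with the matched letters, or their reverse complement for a match on the opposite strand, in capitals, with AP-1 as TGANTCA, CDX as TTTATNG, TCF/LEF as CTTTGNT and HNF4 as CAAAGTCCA.
EMP1, AP-1 letters 175 bases before the start, chr12:13196521-13196587, plus strand: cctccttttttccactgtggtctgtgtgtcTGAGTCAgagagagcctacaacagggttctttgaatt
EMP1, AP-1 letters 48 bases before the start, chr12:13196648-13196714, plus strand: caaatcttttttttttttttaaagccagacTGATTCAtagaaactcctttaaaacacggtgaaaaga
OLFM4, AP-1 letters 137 bases before the start, chr13:53028646-53028712, plus strand: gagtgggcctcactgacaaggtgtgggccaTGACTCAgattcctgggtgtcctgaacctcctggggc
RGMB, AP-1 letters 235 bases before the start, chr5:98768382-98768433, plus strand: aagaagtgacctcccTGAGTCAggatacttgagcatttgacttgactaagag
FABP1, CDX letters 90 bases before the start, chr2:88128116-88128182, minus strand: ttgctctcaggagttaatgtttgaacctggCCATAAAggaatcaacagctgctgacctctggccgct
FABP1, CDX letters 32 bases before the start, chr2:88128063-88128124, minus strand: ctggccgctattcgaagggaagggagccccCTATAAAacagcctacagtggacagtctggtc
TM4SF4, CDX letters 76 bases before the start, chr3:149474591-149474657, plus strand: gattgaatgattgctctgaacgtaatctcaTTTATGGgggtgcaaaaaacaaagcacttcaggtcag
SPINK4, CDX letters 30 bases before the start, chr9:33240107-33240166, plus strand: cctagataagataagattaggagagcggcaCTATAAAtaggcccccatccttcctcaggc
MYB, TCF/LEF letters 33 bases before the start, chr6:135181245-135181307, plus strand: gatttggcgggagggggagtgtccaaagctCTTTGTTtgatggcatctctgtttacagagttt
REG1A, HNF4 letters 221 bases before the start, chr2:79120238-79120305, plus strand: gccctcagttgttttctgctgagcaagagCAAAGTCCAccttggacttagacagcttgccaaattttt
EMP1, which rose, holds AP-1 letters at 2 places, and OLFM4 and RGMB, which fell, hold them too, so the same letters lay at genes of both directions. Matches not printed were TCF/LEF letters at FABP1, TM4SF4, TM4SF1, ANXA1 and REG1A, CDX letters at ANXA1 and HIST1H2BM, and AP-1 letters at CCL24. KRT20, PKIB, CEACAM7, SMOC2 and PLA2G2A held none of the 6 motifs in their windows, which says nothing of sites elsewhere. Over all windows, AP-1 letters were in 4.31% (385 of 8937), in 8.28% of the windows of genes at least 1.5-fold higher (25 of 302, Wilson 95% interval 5.67 to 11.9%) and in 6.12% of those lower (17 of 278, 3.85 to 9.57%). TCF/LEF letters were in 10.1, 15.6 and 11.5%, and at 2-fold in 26.3% of the 76 windows of higher genes (17.7 to 37.2%) and in 16% of the 75 of lower genes (9.4 to 25.9%). At 2-fold AP-1 letters were in 6.58 and 8.0% of the higher and lower windows, CDX letters in 14.5 and 17.3%, HNF4 letters in 0.0 and 1.33%, E-box letters in 10.5 and 1.33% and KLF letters in 0.0% of both. HNF4 letters were rare (0.3, 1.32 and 0.72%), as were KLF letters, GGGTGTGGC (1.12, 0.33 and 0.72%). E-box letters, CACGTG, were in 10.6, 8.28 and 6.12%. CDX letters were in 6.04, 12.9 and 12.2%. Many CDX matches overlap the TATA box letters TATAAA near the start, as in SPINK4 and at the second place in FABP1. TATAAA was in 5.62% of all windows, in 15.9% of those of the higher genes and in 19.8% of those of the lower genes. With the overlapping matches left out, a choice made after seeing the data, CDX letters were in 4.17, 6.95 and 5.04%. These shares describe the windows only.

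Transcripts that follow ERK activity moved in opposite directions. All 6 cultures were under BRAF inhibitor. Of 25 tested members 14 rose and 7 fell, 7 and 2 of these past 1.5-fold, with a median of 0.24. DUSP5, the nuclear ERK phosphatase, read 23.8, 23.6 and 24.9 without doxycycline and 75.7, 78.2 and 78.8 with it (log2 fold change 1.65 ± 0.03 SE, adjusted p = 8.9e-10), 3.22-fold higher by the means. DUSP4 rose by 0.67 ± 0.05 SE, and DUSP6, the cytoplasmic ERK phosphatase, read 21.6, 18.9 and 21.9 without doxycycline and 25.7, 25.7 and 25.1 with it (log2 fold change 0.29 ± 0.05 SE, adjusted p = 0.00077). SPRY2, an inhibitor of receptor signalling to RAS, went the opposite way. It read 19, 19.4 and 18.6 without doxycycline and 6.88, 7.26 and 7.5 with it (log2 fold change -1.29 ± 0.04 SE, adjusted p = 6e-09), every doxycycline library under every control. SPRY4 (-0.00 ± 0.03 SE, 0.19 without rescaling), EGR1 (0.07 ± 0.06 SE) and FOSL1 (0.09 ± 0.05 SE) were not called and their groups overlapped. FOSL1 was called higher without doxycycline replicate 2 (0.151), and without rescaling FOSL1 (0.3) and EGR1 (0.27) were. TRIB1, a pseudokinase, and the chromatin protein HMGA2 rose by 1.04 ± 0.03 SE and 1.09 ± 0.04 SE, the transcription factor ETV4 rose by 0.34, and PHLDA1 fell by 0.56.

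**Figure D2:**
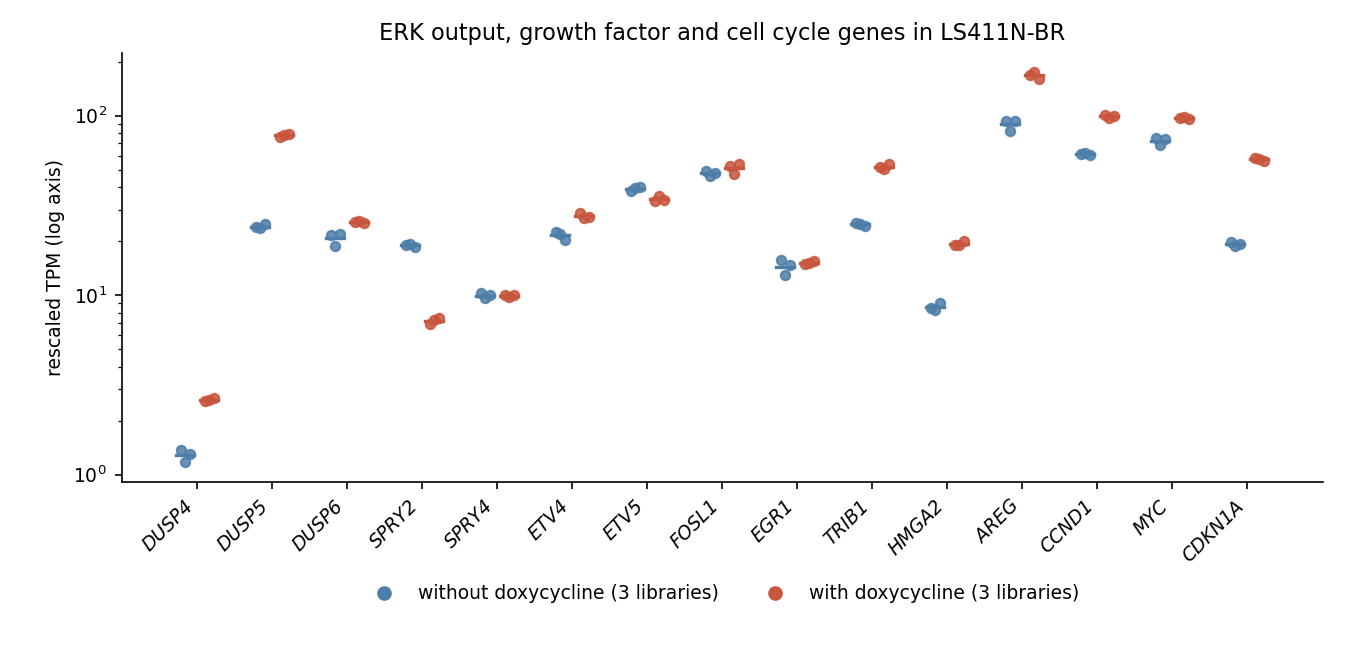
Rescaled TPM (log axis) of 15 ERK output, growth factor and cell cycle genes in the 6 LS411N-BR libraries, points for libraries and short lines for means. DUSP5 and CDKN1A lay higher with doxycycline, SPRY2 lower, and SPRY4, FOSL1 and EGR1 overlapped.

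The kinases of the cascade changed little. Of 26 tested RAS, RAF, MEK and ERK genes 17 were called higher and 4 lower, but only 1 by at least 1.5-fold. That gene was MKNK2, a kinase under ERK, which rose by 0.78 ± 0.04 SE. BRAF itself read 5.59, 5.94 and 5.46 without doxycycline and 6.6, 6.59 and 6.73 with it (log2 fold change 0.20 ± 0.04 SE, adjusted p = 0.0016), a small rise without overlap of the groups. RASA1, which turns RAS off, fell by 0.53. Of 22 receptor tyrosine kinases and ligands 8 rose and 10 fell, 3 and 3 of these past 1.5-fold. EGFR, through which colon cancer cells often regain ERK activity under BRAF inhibitors, read 19.2, 20.1 and 18.9 without doxycycline and 20.8, 20.3 and 21.4 with it (log2 fold change 0.10 ± 0.03 SE, adjusted p = 0.03). That call was lost without doxycycline replicate 1 or 3 or control replicate 1 or 3 (0.081 to 0.1), and also without a filter on low values. MET rose by 0.33, and ERBB2 fell by 0.27. Larger changes were in the ligands. AREG, an EGFR ligand, read 93.2, 82.2 and 93 without doxycycline and 168, 174 and 161 with it (log2 fold change 0.90 ± 0.05 SE, adjusted p = 3.8e-07), HBEGF rose by 0.61 and TGFA by 0.38, while VEGFA fell by 0.79. FGFR4 and FGFR2 fell by 0.90 and 0.66.

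The PI3K branch showed 6 of 24 tested members higher and 10 lower, with FOXO1, a factor that AKT keeps out of the nucleus, alone past 1.5-fold (0.71 ± 0.04 SE). The regulatory subunits PIK3R1 and PIK3R2 fell by 0.44 and 0.41. AP-1 and immediate early factors leaned one way. Of 17 tested members 13 were called higher and 0 lower, against 32.3% and 32.1% of all genes (4 genes were not called by limma). FOS read 4.46, 3.51 and 3.87 without doxycycline and 6.99, 6.75 and 7.06 with it (log2 fold change 0.69 ± 0.06 SE, adjusted p = 1e-05), JUNB 29.4, 26.9 and 29.5 without doxycycline and 41.2, 39.3 and 41 with it and KLF6, a zinc finger factor, 18.1, 17.6 and 18.6 without doxycycline and 35, 36.1 and 36.9 with it (log2 fold change 0.95 ± 0.03 SE, adjusted p = 1.7e-08). ATF3, NR4A1 and the phosphatase DUSP1 rose by 0.55, 0.64 and 0.62. All of these were low or moderate genes, and in each the groups did not overlap.

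Of the 6 tested CDK inhibitors of the list 3 were called higher and 0 lower. CDKN1A, which encodes the CDK inhibitor p21, read 19.7, 18.9 and 19.2 without doxycycline and 58.4, 57.1 and 56.1 with it (log2 fold change 1.52 ± 0.03 SE, adjusted p = 1.1e-09), 2.97-fold by the means. CDKN2B, which encodes p15, read 0.576, 0.605 and 0.624 without doxycycline and 2.19, 1.97 and 2.04 with it (log2 fold change 0.94 ± 0.05 SE, adjusted p = 4.5e-07). CDKN1B, which encodes p27, rose by 0.24. CDKN2A (0.13, called higher at 0.201 without doxycycline replicate 3 and at 0.272 without rescaling), CDKN2C (-0.07) and CDKN2D (-0.05) were not called, and the signs of the last 2 turned without rescaling. Among p53 targets on the same list MDM2 rose by 0.10, GDF15 was not called (0.03), and SESN1 and CCNG1 fell by 0.77 and 0.57. Of 27 tested members of the list 11 were called higher and 6 lower. Of 51 G1 to S and replication genes 6 were called higher and 31 lower (median -0.16, and 0.04 without rescaling), and of 42 mitosis genes 2 and 32 (median -0.21, and -0.00 without rescaling). Both directions therefore depended on the scaling. Their changes were small, with 0 mitosis genes past 1.5-fold. TOP2A, the topoisomerase of dividing cells, read 117, 117 and 112 without doxycycline and 90.3, 89.9 and 91.9 with it (log2 fold change -0.34 ± 0.03 SE, adjusted p = 7.3e-06), MCM2, part of the replicative helicase, 40.7, 42.4 and 40.9 without doxycycline and 35.1, 34.4 and 33.9 with it, and MKI67 67.4, 71 and 65.5 without doxycycline and 70.9, 65.3 and 73 with it, which was not called. The pocket protein RBL1, a partner of E2F factors, had the largest fall of the replication list (log2 fold change -0.94 ± 0.03 SE, adjusted p = 1.6e-08). The cyclin CCND2 went up, reading 152, 164 and 161 without doxycycline and 283, 255 and 283 with it (log2 fold change 0.78 ± 0.05 SE, adjusted p = 6e-07).

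Growth machinery changed little. Of 37 tested MYC and ribosome biogenesis genes 13 rose and 8 fell, 0 and 1 of these past 1.5-fold. Nucleolin, NCL, was not called (0.03), and SRM, a polyamine synthase, rose by 0.58. Of 50 cytosolic ribosomal protein genes 0 were called higher and 40 lower (0 by at least 1.5-fold, median -0.19, and 0.02 without rescaling, where the direction was lost). RPL3 read 1315, 1288 and 1319 without doxycycline and 962, 1026 and 943 with it (log2 fold change -0.42 ± 0.04 SE, adjusted p = 2e-05). Ribosomal protein genes have many near-identical pseudogenes, which counting can mix.

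Histone genes fell as a group. This group was noticed after the values were seen, through HIST1H2BM, and takes all genes whose symbol starts with HIST. Of 74 such genes listed 53 were tested, and 0 were called higher and 51 lower, 49 of them by at least 1.5-fold. Their median was -0.97 (-0.76 without rescaling, where 52 were lower and 1 higher). The 53 genes together made up 43910, 40710 and 42370 rescaled TPM without doxycycline and 22830, 22250 and 22670 with it. All classes took part: 4 of 4 tested H1 genes were called lower, 13 of 13 H2A, 15 of 16 H2B, 9 of 9 H3 and 10 of 11 H4. HIST1H2BM read 252, 235 and 238 without doxycycline and 82.5, 73.1 and 83.4 with it (log2 fold change -1.59 ± 0.05 SE, adjusted p = 1.1e-08), the linker histone HIST1H1C 1519, 1445 and 1429 without doxycycline and 782, 796 and 824 with it (log2 fold change -0.87 ± 0.04 SE, adjusted p = 1.3e-07) and HIST1H4C 1026, 825 and 905 without doxycycline and 575, 595 and 515 with it (log2 fold change -0.71 ± 0.08 SE, adjusted p = 3.5e-05). HIST2H2BC and HIST1H4K were the 2 not called. These genes are near-identical copies, so single values are uncertain where counting split reads among them, and the sum is the firmer value.

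Replication-dependent histone genes are copied in S phase into mRNA that mostly ends in a stem-loop and not in a poly(A) tail, and these libraries were made with a poly(A) mRNA kit. Values that bear on that were set beside the fall. The mean share of short RNA in the libraries was 53.5% without doxycycline and 49.7% with it. Of 7 replacement histones, whose mRNA as a rule carries poly(A), 7 were called lower: H3F3B by 0.57, H2AFX by 0.51, H2AFV by 0.48, H1F0 by 0.46, H2AFY and H1FX by 0.29 each, and H2AFZ by 0.14 (its sign turned without rescaling). These 7 were picked by hand after the histone fall was seen, and 32.1% of all genes tested were called lower. Whether the mRNA of each of the 7 carried poly(A) in these cultures was not measured. Other RNAs without poly(A) moved unevenly, with RN7SK at -0.32 ± 0.21 SE and RN7SL1 at -0.29 ± 0.17 SE (neither called, but both called without the intensity trend or with robust moderation), RN7SL2 at -0.43 ± 0.16 SE (adjusted p = 0.039, a call lost without doxycycline replicate 1 or 3 or control replicate 1 or 3, -0.324 to -0.436, and also lost without a filter), RPPH1 at 0.08 ± 0.13 SE (not called) and SCARNA10 at -0.73 ± 0.08 SE (adjusted p = 2.3e-05). NPAT, which turns histone genes on in S phase, and SLBP, which binds the stem-loop, had -0.18 ± 0.04 SE and -0.10 ± 0.03 SE. Both signs turned without rescaling, and the SLBP call was lost without doxycycline replicate 1 or control replicate 1 or 3 (-0.075 to -0.099). The part of poly(A) selection and of the cell cycle in the histone change was not tested.

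**Figure D3:**
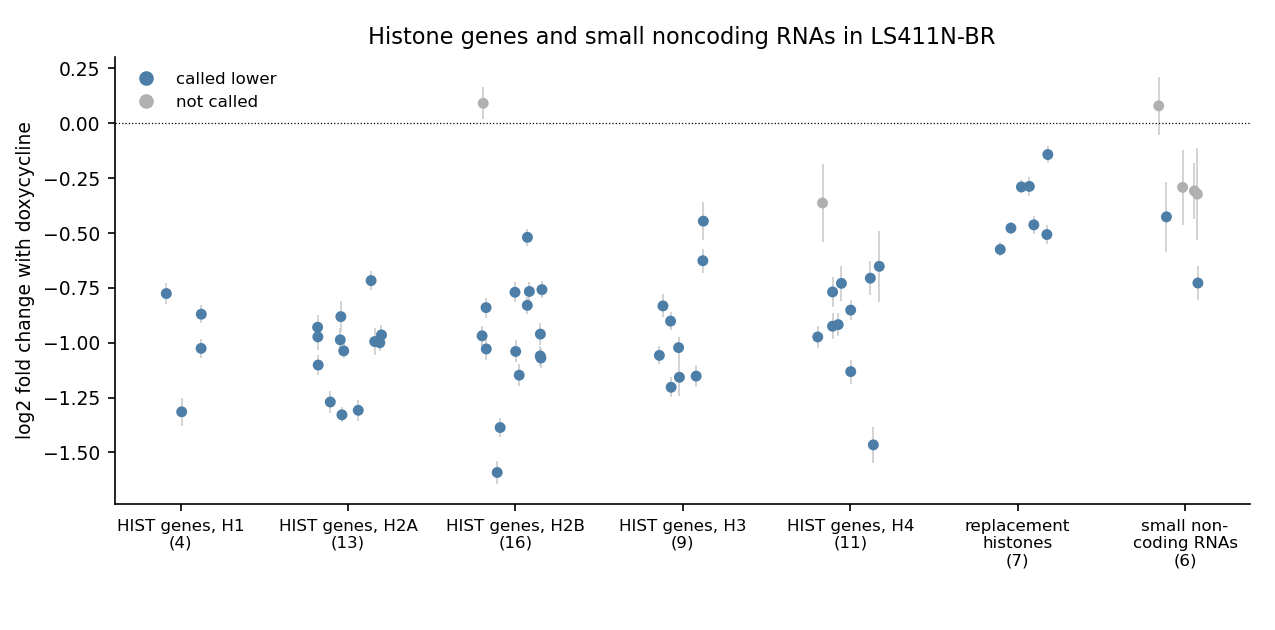
Log2 fold change with doxycycline on the log2(rescaled TPM + 1) scale for 53 genes with HIST symbols by class, 7 replacement histones and 6 small noncoding RNAs, with bars of 1 SE. Of the HIST genes 51 lay below 0 and were called, while 4 of the 6 small noncoding RNAs were not called.

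Amino acid response genes leaned lower on the rescaled values alone. Of 31 tested genes of ATF4 and the amino acid response 2 were called higher and 20 lower, 3 of the 20 by at least 1.5-fold (median -0.16, and 0.03 without rescaling). ATF4 itself read 231, 228 and 232 without doxycycline and 215, 219 and 211 with it (log2 fold change -0.10 ± 0.03 SE, adjusted p = 0.016), its sign turned without rescaling, and the call was lost without doxycycline replicate 3 (-0.082) or control replicate 1 (-0.095). NUPR1, a stress protein, read 21.5, 23.2 and 20.9 without doxycycline and 6.79, 9.69 and 6.91 with it (log2 fold change -1.39 ± 0.10 SE, adjusted p = 2.5e-06), and the serine synthesis enzyme PSAT1 255, 244 and 264 without doxycycline and 162, 174 and 164 with it (log2 fold change -0.61 ± 0.04 SE, adjusted p = 8.8e-07). MTHFD2, of mitochondrial folate metabolism, fell by 0.58. WARS, which charges the tRNA of tryptophan, read 69.9, 67.4 and 69 without doxycycline and 16.7, 16.5 and 18.2 with it (log2 fold change -1.94 ± 0.04 SE, adjusted p = 1.1e-09), and DARS, which charges that of aspartate, 43.6, 44.1 and 47.9 without doxycycline and 13.8, 13.8 and 13.6 with it (log2 fold change -1.65 ± 0.04 SE, adjusted p = 1.5e-09). Both lay apart from their family, a comparison made after the values were seen. Of 20 tested cytosolic tRNA synthetases 5 were called higher and 11 lower with a median of -0.10, and no synthetase but WARS and DARS was past 1.5-fold. The next lowest were QARS at -0.37 and MARS at -0.36.

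The unfolded protein response list had 3 of 27 tested members higher and 17 lower (median -0.22, and -0.02 without rescaling). HSP90B1, the endoplasmic chaperone, read 744, 732 and 734 without doxycycline and 534, 538 and 535 with it (log2 fold change -0.46 ± 0.03 SE, adjusted p = 1.5e-06), its relative HSPA5 fell by 0.25 and the factor XBP1 by 0.37. ERN2, the stress sensor found in goblet cells, fell by 0.60, and SEL1L by 0.61. Among hypoxia and glycolysis genes 5 of 33 tested were called higher and 20 lower, 7 of the 20 by at least 1.5-fold, with a median of -0.23 (-0.04 without rescaling). CA9, the hypoxia-induced carbonic anhydrase, read 14.9, 12.7 and 13.2 without doxycycline and 3.12, 5.17 and 3.65 with it (log2 fold change -1.57 ± 0.12 SE, adjusted p = 3.6e-06). PGAM1, a glycolytic mutase, read 142, 139 and 138 without doxycycline and 59.2, 60.8 and 56.2 with it (log2 fold change -1.24 ± 0.03 SE, adjusted p = 4.4e-09) and LDHA, lactate dehydrogenase, 451, 457 and 458 without doxycycline and 243, 256 and 242 with it (log2 fold change -0.88 ± 0.03 SE, adjusted p = 3e-08). The glucose transporter SLC2A1 and hexokinase HK2 were higher, by 0.33 and 0.33, so the list did not move together. Of 46 nuclear oxidative phosphorylation genes 5 were called higher and 14 lower, of 45 mitochondrial ribosome genes 11 and 15, and of 29 cholesterol and fatty acid genes 10 and 12. Without rescaling these counts were 25 and 4, 27 and 3, and 16 and 3, so the lean turned. In these 3 lists only MRPL42 (-0.95) and MRPL17 (-0.81) were past 1.5-fold.

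Several drug handling genes rose. Of 22 tested members 13 rose and 4 fell, 5 and 0 of these past 1.5-fold, with a median of 0.20. ABCG2, an efflux pump for many cancer drugs, read 20.4, 21.8 and 21.5 without doxycycline and 52.9, 52.8 and 54 with it (log2 fold change 1.29 ± 0.03 SE, adjusted p = 2.4e-09), and ABCC2, another pump, 3.11, 2.62 and 3.1 without doxycycline and 8.52, 8.08 and 9.08 with it (log2 fold change 1.28 ± 0.06 SE, adjusted p = 1.1e-07). The glucuronosyltransferase UGT1A1 read 2.08, 2.43 and 2.34 without doxycycline and 9.18, 7.75 and 7.51 with it (log2 fold change 1.48 ± 0.07 SE, adjusted p = 1.3e-07), and the drug-oxidising enzyme CYP3A5 11.5, 10.7 and 11.8 without doxycycline and 27.6, 26.4 and 28.5 with it (log2 fold change 1.21 ± 0.04 SE, adjusted p = 2.3e-08). ABCB1, which encodes P-glycoprotein, rose by 0.94 ± 0.07 SE from a mean under 1 rescaled TPM. UGT1A genes share exons, so reads can be split among them. Mature enterocytes also express several of these genes. Of 30 NRF2 targets 14 were called higher and 9 lower. NFE2L2, which encodes NRF2, read 77.9, 76.7 and 78 without doxycycline and 44.9, 45.6 and 47.4 with it (log2 fold change -0.74 ± 0.03 SE, adjusted p = 4.8e-08), NQO1, its usual readout, fell by 0.32 and the cystine transporter SLC7A11 by 0.91, while HMOX1 rose by 0.77.

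Among 29 tested BCL2 family and death receptor genes 17 rose and 4 fell, 1 and 1 of these past 1.5-fold. TNFRSF21, also called death receptor 6, read 30.6, 28.6 and 32.2 without doxycycline and 68.1, 66.1 and 70.5 with it (log2 fold change 1.14 ± 0.04 SE, adjusted p = 3.5e-08), and the ligand TNFSF10, also called TRAIL, fell by 0.76. The survival genes MCL1 and BCL2L1 rose by 0.19 and 0.27 and the killer BCL2L11, a mediator of cell death under ERK pathway inhibitors, by 0.33.

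Among 19 tested interferon genes 9 rose and 5 fell, 3 and 2 of these past 1.5-fold. ISG15 read 6.4, 5.77 and 6.53 without doxycycline and 18.5, 15.4 and 18.2 with it (log2 fold change 1.34 ± 0.07 SE, adjusted p = 1.7e-07) and OAS1 7.76, 7.46 and 7.21 without doxycycline and 19.4, 17.7 and 17.5 with it (log2 fold change 1.18 ± 0.04 SE, adjusted p = 2.8e-08), while IFITM1 fell by 1.00 and MX1 by 0.34, so the list did not move together. Of 16 NF-kB and chemokine genes 6 were called higher and 4 lower, with CCL20 and CXCL8 the 2 that fell past 1.5-fold (-0.60 and -0.63), and of 13 antigen presentation genes 2 and 5. In the Notch, BMP and TGF-beta list 14 of 24 were called higher and 7 lower. ID1 and ID3, targets of BMP signals, rose by 0.80 ± 0.04 SE and 0.71 ± 0.04 SE, and the Notch ligand DLL4 and receptor NOTCH1 fell by 0.98 and 0.62. Of 17 YAP and TEAD targets 11 were called higher and 6 lower. CYR61 rose by 0.67 and CTGF, as classical a target, fell by 0.63. Of 39 chromatin genes 5 were called higher and 19 lower, 0 of them by 1.5-fold (median -0.09, and 0.06 without rescaling). The DNA methyltransferase DNMT3A fell by 0.52. Of 28 DNA repair genes 2 were called higher and 16 lower (median -0.13, and 0.04 without rescaling), FANCD2 the most (-0.57).

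The largest rise of any gene taken by the rule lay outside these lists of cell types. PKIB, an inhibitor of protein kinase A, read 2.1, 1.67 and 2.22 without doxycycline and 22.3, 24 and 24.6 with it (log2 fold change 3.04 ± 0.07 SE, adjusted p = 1.3e-09), 11.8-fold by the means. Of the 15 tested cAMP and serum kinase genes that include it 8 were called higher and 2 lower, with the kinase SGK2 at 0.95 ± 0.04 SE and RGS2, which dampens G protein signals, at 0.78 ± 0.04 SE. Among 23 vesicle traffic genes 12 were called higher and 4 lower, with RAB27B, a GTPase of secretory vesicles, at 0.98 ± 0.06 SE and its effector SYTL2 at 0.96 ± 0.05 SE. The other genes described here from the 15 largest rises are membrane, receptor and cytoskeleton genes. The tetraspan membrane proteins TM4SF4 and TM4SF1 read 2.62, 2.64 and 2.73 without doxycycline and 13.6, 11.2 and 12.8 with it and 57.1, 49.1 and 55.1 without doxycycline and 174, 188 and 184 with it. THRB, a thyroid hormone receptor, read 2.22, 2.44 and 2.39 without doxycycline and 11.1, 10.9 and 11 with it (log2 fold change 1.84 ± 0.04 SE, adjusted p = 1.3e-09) and MAPRE3, which binds growing microtubule ends, 3.29, 3.35 and 3.02 without doxycycline and 12.7, 12.1 and 11.2 with it (log2 fold change 1.62 ± 0.05 SE, adjusted p = 1e-08).

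**Figure D4:**
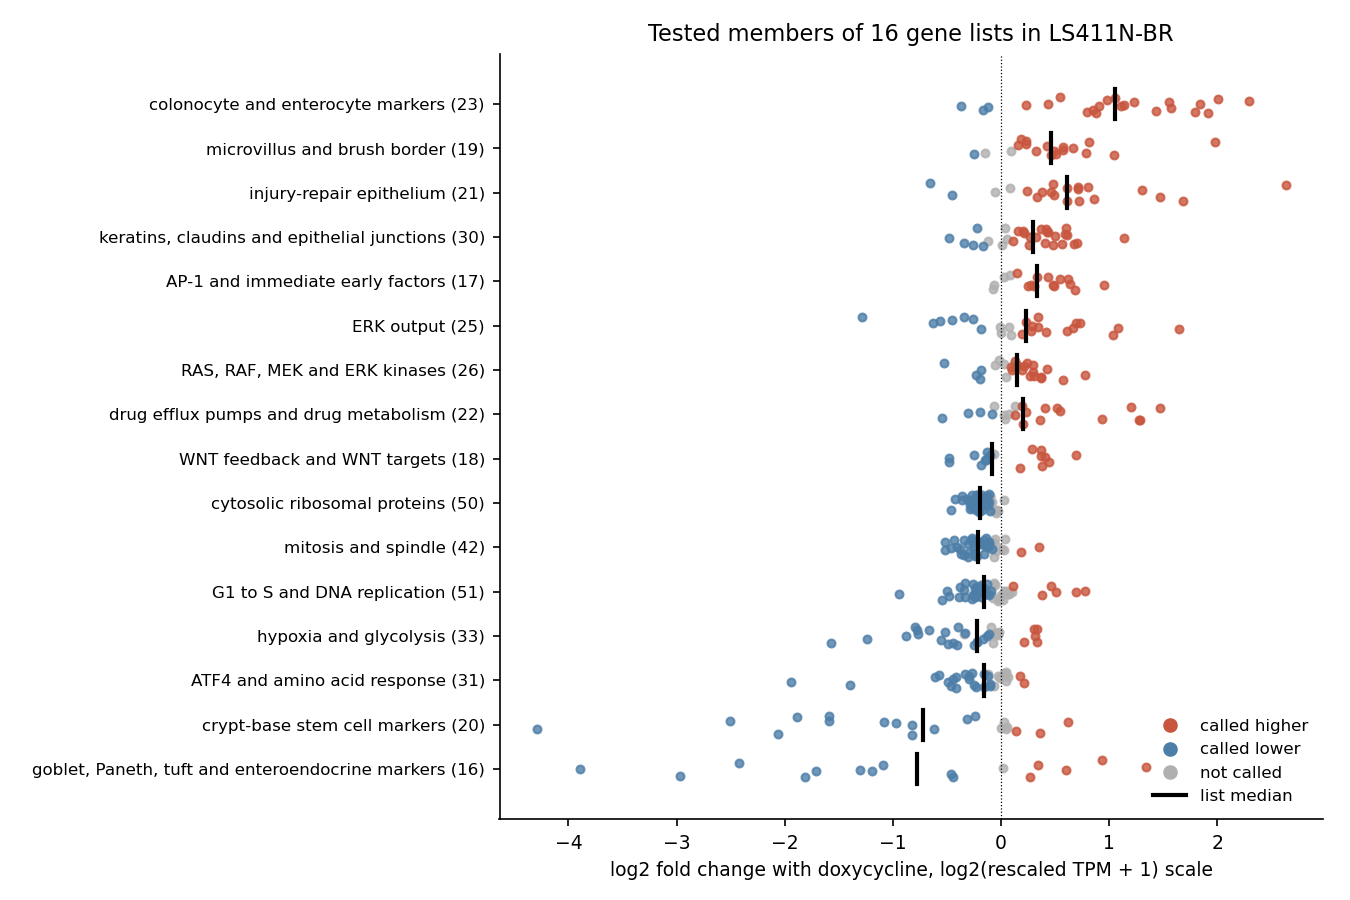
Log2 fold change with doxycycline of the tested members of 16 gene lists in LS411N-BR, 1 point per gene coloured by its limma call, with the list's median as a black line and the number of tested members in brackets. The colonocyte median is 1.06, those of the crypt-base and secretory lists are -0.72 and -0.78, and the ribosomal and mitosis lists lie narrowly below 0.

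To ask where the resistant line responded unlike its parent, the difference of the doxycycline effects was tested with limma as an interaction in a fit to the 12 libraries, rescaled together over the genes that both tables list. Of 11880 genes tested 521 had a more positive effect in LS411N-BR (4.39%) and 647 a more negative one (5.45%). The effect on MUC1 was not called different (-0.09, adjusted p = 0.82). Of 17 secretory markers 10 were more negative in LS411N-BR (10 without rescaling by ratios), with medians of -0.77 in LS411N-BR and 0.12 in LS411N. Of 54 HIST genes 41 were more negative (11 without that rescaling), with medians of -0.96 and -0.40. For hypoxia and glycolysis 12 of 33 were more negative, for the amino acid response 13 of 32 and for NRF2 targets 8 of 30, and without that rescaling 4, 3 and 2. Crypt-base markers were more negative in 8 of 21 and more positive in 2, and without that rescaling in 2 and 2. Their medians were close, -0.618 in LS411N-BR and -0.631 in LS411N, so this list fell in both lines. Ion transport genes were more negative in 7 of 13 and more positive in 3, and without that rescaling in 1 and 2. Of 19 microvillus genes 7 were more positive (2 without that rescaling) and 0 more negative. Among 23 colonocyte markers 9 were more positive and 6 more negative, and 8 and 1 without that rescaling. Their medians were 1.063 in LS411N-BR and 0.805 in LS411N. Of 23 injury-repair genes 1 was more positive and 6 more negative, and 0 and 2 without that rescaling. The medians of that list were 0.497 in LS411N-BR and 0.595 in LS411N. The colonocyte and injury-repair lists thus rose in both lines.

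These counts depended on single libraries. Without replicate 3 of LS411N without doxycycline they were 1053 and 1283, and then 12 secretory, 44 HIST, 13 hypoxia and 15 amino acid response genes were more negative. In LS411N-BR, leaving out doxycycline replicate 1 or 3 gave 305 and 379 or 317 and 410, and leaving out control replicate 1, 2 or 3 gave 311 and 423, 338 and 467, or 305 and 418. Scaling all libraries only to the same sum over shared genes gave 209 and 102.

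SPINK4, with 24.1, 25.0 and 30.4 rescaled TPM without doxycycline and 3.03, 5.32 and 4.12 with it in LS411N-BR, had 25.9, 31.5 and 25.7 against 33.1, 24.6 and 33.5 in LS411N. The difference of the log2 changes was -2.56 ± 0.22 SE (adjusted p = 2.6e-05), and the LS411N groups overlapped. REG4 read 21.4, 19.0 and 21.0 against 7.64, 7.74 and 7.59 in LS411N-BR and 24.9, 26.7 and 28.3 against 36.7, 36.3 and 31.9 in LS411N, so it lay lower with doxycycline in LS411N-BR and higher in LS411N (difference -1.69 ± 0.09 SE, adjusted p = 5.4e-07). Without doxycycline the values of SPINK4 overlapped between the lines, and those of REG4 were higher in LS411N. CEACAM1 rose from 11.5, 11.2 and 11.9 to 32.8, 33.1 and 33.7 in LS411N-BR and read 5.39, 5.32 and 5.38 against 6.20, 5.92 and 5.99 in LS411N (difference 1.30 ± 0.05 SE, adjusted p = 4.4e-08). SERPINI1, a serine protease inhibitor, read 10.7, 12.1 and 10.7 against 3.86, 3.26 and 2.92 in LS411N-BR and stayed between 0.65 and 1.02 in LS411N (difference -1.36 ± 0.115 SE, adjusted p = 2.4e-05).

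For genes near 0 in LS411N the difference depended on the added 1 TPM. CEACAM7 had means of 0.0775 and 0.468 there, a ratio of 6.03 against 4.46 in LS411N-BR, and MUC17 0.09 and 0.406, a ratio of 4.51 against 4.43. Their differences of 1.42 and 1.22 on the log2(rescaled TPM + 1) scale were 0.44 and 0.65 with 0.1 TPM added, and neither was then called. REG1A, at 0.679, 0.238 and 0.595 without doxycycline in LS411N, had a difference of -2.64, which was -1.91 and not called with 0.1 TPM added. SPINK4, REG4 and CEACAM1 kept their calls with 0.1 TPM added (-2.80, -1.79 and 1.35). The antisense RNA CDC37L1-AS1 (difference 1.23) lost its call on leaving out any of 5 libraries, doxycycline replicates 2 and 3 of LS411N, doxycycline replicates 1 and 3 and control replicate 3 of LS411N-BR, with values of 1.15 to 1.24.

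**Figure D5:**
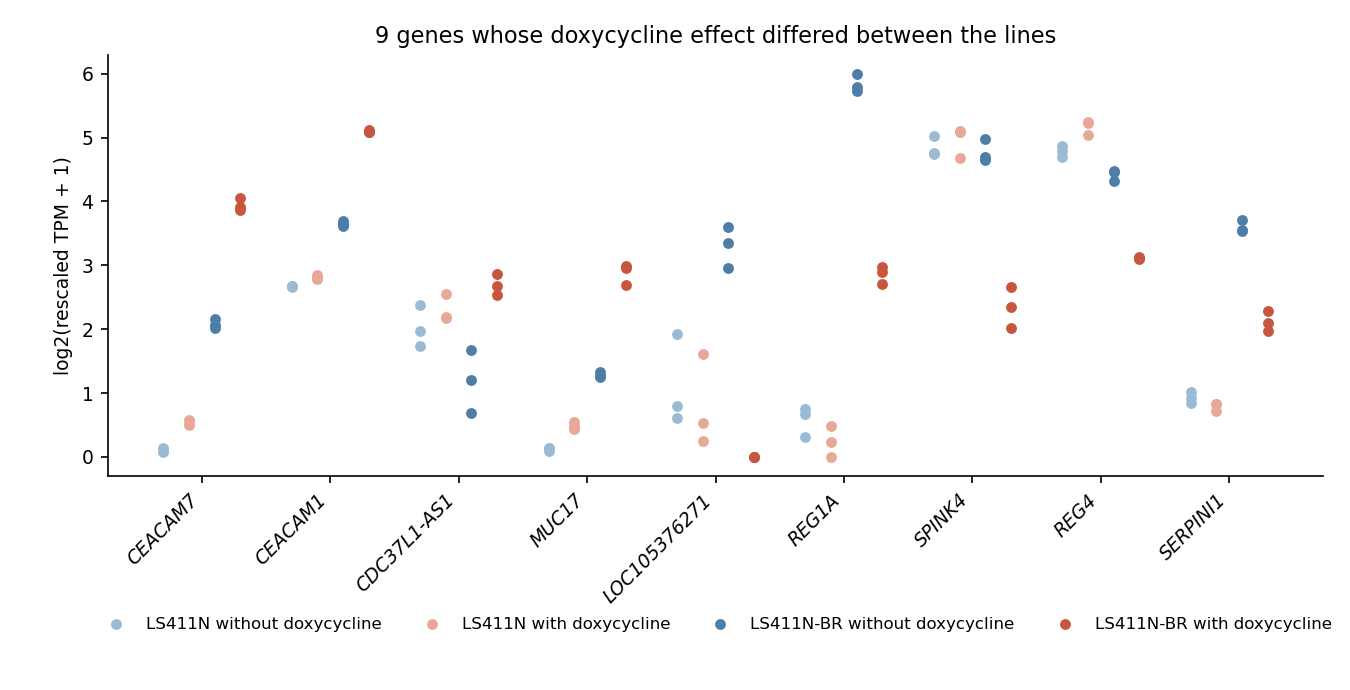
Log2(rescaled TPM + 1) of 9 genes in all 12 libraries, 3 points per group, LS411N in pale and LS411N-BR in dark colours. SPINK4 and REG4 lie lower with doxycycline in LS411N-BR and not in LS411N, whereas CEACAM7 and MUC17 start near 0 in LS411N and lie higher with doxycycline in both lines.

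Limits of these comparisons are the lack of read depth, the small spread between cultures that may be technical, and the scaling. Directions of the ribosomal, mitosis, replication, chromatin, DNA repair, amino acid response, unfolded protein response and ion transport lists rest on the rescaling. Calls of the oxidative phosphorylation, mitochondrial ribosome, PI3K, receptor tyrosine kinase, cholesterol and antigen presentation lists leaned lower with it and higher without it. The direction of the hypoxia and glycolysis list was weaker without it (11 called higher and 14 lower). Directions of the colonocyte, crypt-base, secretory, injury-repair and histone genes do not rest on it.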

How the data were processed

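RNA of triplicate cultures was made into TruSeq Stranded mRNA libraries, per the labels' protocols. The authors deposited a TPM table for each line, already scaled to 1000000 per library. The submitters' processing notes name STAR, DESeq2 and GRCh38, without roles; the sources used here do not give the TPM program or read totals, so the depth is unknown and no counting interval is given for expression.

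LS411N-BR genes reaching 1 TPM in 3 or more libraries were kept, rescaled by the median of ratios and tested on log2(rescaled TPM + 1) with limma 3.58.1 in R 4.3.3 (moderated with an intensity trend, Benjamini-Hochberg adjustment, called under 0.05). A change of at least 1.5-fold was a second rule. The lines were compared through the interaction term over 12 libraries. The script was tested on simulated data. The 45 gene lists hold 1278 genes, of which 1262 were matched, 17 of them through an older symbol; the 13 mitochondrially encoded genes were not matched. The members and lists were chosen with earlier results of these data known. Lists are described by counts and medians without a set test.

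Genes were named by rule: MUC1, the 15 largest called changes in each direction whose groups did not overlap and whose higher mean was at least 5 TPM, key members and the 4 largest called changes of each list, and the 5 largest differences between lines in each direction. A few genes this rule selects are left out of the text. Gene positions are from GENCODE 29 and promoters from RefSeq (GRCh38.p14). Alternatives were the deposited scaling, other filters, pseudocount, trend and robust moderation settings, a replicate block and leaving out each library.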

Additional observations from a re-analysis of the deposited data

Results flagged for a closer look

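The doxycycline effect on 9 genes described here differed between LS411N-BR and LS411N by the interaction term of limma, each taken by the naming rule. The log2 differences, LS411N-BR minus LS411N, were 1.42 for CEACAM7, 1.3 for CEACAM1, 1.23 for CDC37L1-AS1 and 1.22 for MUC17. They were -2.98 for LOC105376271, -2.64 for REG1A, -2.56 for SPINK4, -1.69 for REG4 and -1.36 for SERPINI1. CEACAM7, MUC17 and REG1A lost the call with 0.1 TPM added in place of 1, and CDC37L1-AS1 on leaving out any of 5 libraries. LOC105376271 was listed at 0 in all 3 LS411N-BR libraries with doxycycline.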

How the results depend on the processing

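Of 2924 pairs of a named gene and a setting, 1620 with all libraries kept and 1242 with a library left out gave the same direction and side of the threshold. With TPM as deposited, 6351 genes were called higher and 1252 lower, 883 and 221 of them by at least 1.5-fold, and with a pseudocount of 0.1 TPM 595 were higher by that much. The deposited scaling also turned ATF4 (0.113), AXIN2 (0.098), CDKN2C (0.103), CDKN2D (0.061), H2AFZ (0.068), NPAT (0.01), SLBP (0.108) and SPRY4 (0.188). It made calls of CDKN2A, LGR5, CD44, VIL1, CDH1, EGR1, FOSL1, GDF15, MKI67, NCL and RPPH1, all higher (0.237 to 0.303), and ended the calls of ERBB2, HSPA5, LEF1, MCM2, MYO1A, NQO1, H1FX and H2AFY (-0.043 to -0.11). With each LS411N-BR library left out in turn, 3365 to 3490 genes rose and 3320 to 3470 fell. It turned the sign of 3 genes that were not called, GDF15 (-0.028 to 0.066), RPPH1 (-0.061 to 0.16) and SPRY4 (-0.024 to 0.015). Genes with a more positive effect in LS411N-BR than in LS411N numbered 305 to 1053 and those with a more negative one 379 to 1283 with a library left out, both highest without control replicate 3 of LS411N, and 209 and 102 with libraries scaled to the same sum. The cause was not tested. Same-numbered cultures shared only a number (correlations of their deviations 0.03, 0.007 and 0.008). With the replicate number as a block 3671 genes were called higher and 3622 lower, and between lines 412 and 584. Under the block EGFR (0.099) and RN7SL2 (-0.426) were not called, FOSL1 (0.094) and VIL1 (0.095) were, and no other named gene changed its call. Read depth is unknown, so what it limits cannot be stated.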
